A study of Mus musculus with 15 samples.

Results

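The comparison was of cultured mouse satellite cells given adenosine monophosphate (AMP) with cells given adenosine, 2 purines that differ by 1 phosphate group on the 5' carbon of the ribose. Satellite cells are the resident stem cells of skeletal muscle. Those measured here came from hindlimb muscle of C57BL/6J mice, were kept in F10 medium to which horse serum was added, and were treated for 24 hours. Of the 15 libraries in the study, 6 entered the comparison: 3 with 0.25 mM AMP and 3 with 0.1 mM adenosine, all of batch 2. The 3 DMSO libraries of that batch, the vehicle control, are given beside them as the untreated level. All 13063 genes with a name in the deposited table of batch 2 were tested. AMP was given at a higher molar dose than adenosine, so compound and dose cannot be told apart in any value below. The sources used here do not give the age or sex of the mice, nor do they state whether each library was a separate animal or culture. The p-values therefore set the differences against the spread from library to library, and part or all of that spread may be technical.

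Adenosine acts on cells from outside and from inside. Outside, it binds the G-protein-coupled adenosine receptors. AMP is cut to adenosine by 5'-nucleotidases and other phosphatases on the cell surface, and nucleotides with more phosphates act on the P2 receptors. Adenosine enters through the nucleoside transporters Slc29a1 and Slc29a2 and is then phosphorylated to AMP by adenosine kinase (Adk), deaminated by adenosine deaminase (Ada), or joined to homocysteine by Ahcy, whose reaction runs both ways in the methylation cycle.

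Each AMP library held 11107450 to 11715650 counts in named genes and each adenosine library 11805487 to 12787538. Genes like ribosomal RNA took 18.5 to 22.5% of the counts with AMP and 16.5 to 22.6% with adenosine, and mRNAs of the mitochondrial genome 1.51 to 1.60% and 1.63 to 1.86%. All 10 satellite cell markers were measured, with a summed level of 3334 to 4015 CPM (counts scaled to a common library total) with AMP and 2927 to 3529 CPM with adenosine. Of the leukocyte markers 3 of 14 were listed, summing to 14.2 to 19.3 and 14.2 to 17.5 CPM, and of the endothelial markers 3 of 10, summing to 11.0 to 16.2 and 11.9 to 12.6 CPM. The markers of fibro-adipogenic progenitors (3 of 12 listed) summed to 65.8 to 75.3 CPM with AMP and 60.3 to 85.9 CPM with adenosine. Ptprc, Cdh5 and Pdgfra, defining markers of the other cell types, were not among the listed genes. Levels in CPM rest on library totals, while every fold change and test also uses TMM factors, which were 0.864 to 0.893 for DMSO and 1.01 to 1.11 for the purine libraries. A level with DMSO therefore stands lower beside the purines in CPM than in the fit. The fitted value is given for several genes where that changes the order, and elsewhere the order in CPM may differ from the fit. In libraries made from many cells, fewer cells of a type and less RNA per cell cannot be told apart.

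Of 13063 genes, 851 (6.51%) differed between cells given AMP and cells given adenosine. A gene is called here when its adjusted p in edgeR's quasi-likelihood test was under 0.05. With AMP, 590 genes (4.52% of those tested) were higher and 261 (2%) lower, of which 98 and 22 differed by more than 2-fold. An unadjusted p under 0.05 was found for 2649 genes. The median log2 fold change, AMP over adenosine, was 0.58 for the genes called higher and -0.44 for those called lower, beside -0.00274 over all tested genes. Of all genes, 88% lay within 0.5 of no difference on the log2 scale. For 2845 genes (21.8%) the 3 AMP libraries lay all above or all below the 3 adenosine libraries, and 819 of the 851 called genes were among them. The fit used all 9 libraries of batch 2. With the 6 AMP and adenosine libraries alone, 613 of 12920 tested genes were called, 421 higher and 192 lower. Of these, 594 were among the 851. The counts also rested in part on single libraries. Without adenosine library 3, 304 genes were called higher and 104 lower. Without AMP library 1 the counts were 397 and 158, and without AMP library 2 they were 362 and 157. Gene lists are described below by the number of members called and by their median, to be read beside these shares of all genes. Where a list had no call in 1 direction, DESeq2 called at most 1 member and at most 3 had an unadjusted p under 0.05 in that direction, unless its values are given at its place. Of the 13 mitochondrially encoded mRNAs, edgeR called 1 higher and none lower, while DESeq2 called 2 lower and 3 were lower at an unadjusted p under 0.05.

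**Figure D1:**
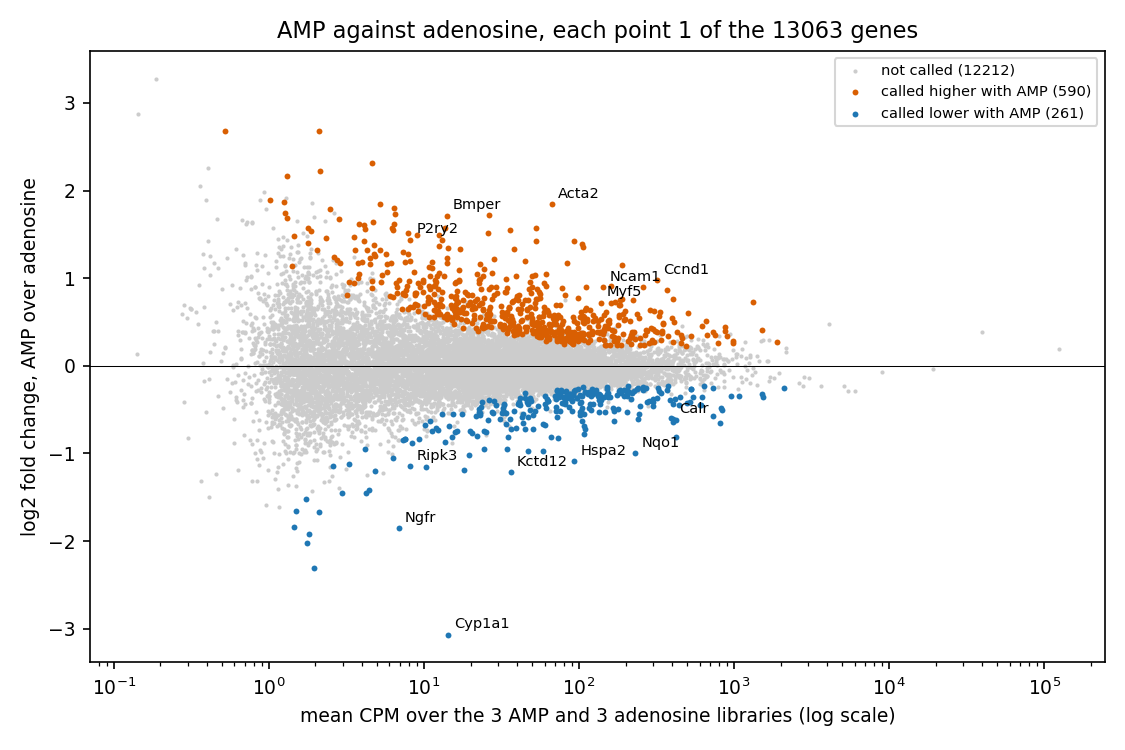
Log2 fold change of AMP over adenosine (vertical axis) against the mean level in CPM over the 6 libraries (horizontal axis, log scale), 1 point per gene. Orange points are the 590 genes called higher and blue points the 261 called lower with AMP. Cyp1a1, at -3.07, is the lowest of the named points, and Acta2, at 1.84, is the highest.

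The largest drop with AMP was in Cyp1a1, the cytochrome P450 that is the classic target of the aryl hydrocarbon receptor (AhR). AhR is a transcription factor that binds small aromatic ligands, enters the nucleus, pairs there with Arnt, and binds DNA at sites with the core GCGTG. Of the 9 listed AhR targets and partners tested, 4 fell with AMP and none rose, with a median log2 fold change of -0.81. Those 4 were Cyp1a1, Cyp1b1, Tiparp and Nqo1, and no left-out library ended the call of any of them. Cyp1a1 (chromosome 9, 57687928 to 57703824 in GRCm38, the build behind mm10, in the GENCODE annotation) stood at 23.6, 22.9 and 30.8 CPM in adenosine libraries 1 to 3 and at 2.25, 3.52 and 3.16 CPM in AMP libraries 1 to 3. Every adenosine library lay far above every AMP library, and the DMSO libraries, at 0.774, 0.871 and 0.319 CPM, lay lowest. The difference was 8.38-fold, lower with AMP (log2 fold change -3.07 (SE 0.23), adjusted p = 5.85e-06 in edgeR's quasi-likelihood test). 

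Since these 4 genes fell together, the stretches from 250 bases before to 50 bases after the start of 3 of them are shown (RefSeq, GRCm38.p6, written 5' to 3' along the gene's strand). Capitals mark the only match to GCGTG on either strand, which reads CACGC where it lies on the other strand. The places are chr9:57697363-57697662, plus strand, for Cyp1a1, chr17:79715012-79715311, minus strand, for Cyp1b1, and chr3:65528197-65528496, plus strand, for Tiparp. The Cyp1a1 stretch follows the RefSeq start, which lies inside the GENCODE span given above and differs from the start of that span.
Cyp1a1: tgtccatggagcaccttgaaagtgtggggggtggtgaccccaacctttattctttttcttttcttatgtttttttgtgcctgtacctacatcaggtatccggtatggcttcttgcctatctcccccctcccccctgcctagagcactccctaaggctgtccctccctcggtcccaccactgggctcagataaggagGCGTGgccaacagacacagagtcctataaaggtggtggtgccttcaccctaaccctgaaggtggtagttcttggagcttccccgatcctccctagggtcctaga
Cyp1b1: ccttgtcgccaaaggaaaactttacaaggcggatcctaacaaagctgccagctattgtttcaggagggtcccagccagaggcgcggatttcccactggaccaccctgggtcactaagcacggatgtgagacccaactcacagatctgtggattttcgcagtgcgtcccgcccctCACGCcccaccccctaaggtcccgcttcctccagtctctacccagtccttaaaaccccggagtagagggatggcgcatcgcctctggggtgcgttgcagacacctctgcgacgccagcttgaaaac
Tiparp: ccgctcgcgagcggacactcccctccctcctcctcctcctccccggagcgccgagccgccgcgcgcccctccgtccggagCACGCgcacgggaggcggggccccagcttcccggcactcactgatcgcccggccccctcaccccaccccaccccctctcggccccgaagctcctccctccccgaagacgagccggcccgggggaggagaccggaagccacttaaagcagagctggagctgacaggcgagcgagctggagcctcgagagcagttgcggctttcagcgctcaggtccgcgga
A match is a description of the letters and not evidence of binding. The motif was found in 57.8% of the 9399 tested genes with a promoter entry, in 63.9% of those called lower and in 59.7% of those called higher. The stretch of Nqo1 held no match. Among members of the AhR list that were not called, Ahrr had 3 matches and Arnt and Scin had 1 each.

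Cyp1b1, a related P450, was low throughout, at 3.72, 3.99 and 2.12 CPM with adenosine and 0.27, 0.616 and 1.02 CPM with AMP. Its AMP libraries lay within or above the DMSO range of 0.141 to 0.61 CPM, and both purine groups stayed apart (log2 fold change -2.31 (SE 0.48), adjusted p = 0.00821). Tiparp, an enzyme that modifies AhR with ADP-ribose and restrains it, had 82.5, 81.6 and 90.3 CPM with adenosine and 40.4, 54.3 and 46.5 CPM with AMP, 1.75-fold lower with AMP (adjusted p = 0.000239). DMSO was at 57.7 ± 5.29 CPM (SD, n = 3), and in the fit AMP lay below it (log2 fold change -0.56, adjusted p = 0.000223) although their CPM overlapped. Ahrr, the AhR repressor, had a log2 fold change of -0.91 that did not pass (adjusted p = 0.113), and Ahr itself one of 0.48 (95% interval 0.16 to 0.81, adjusted p = 0.0735).

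Genes of the NRF2 response to oxidants and electrophiles were also lower with AMP than with adenosine. NRF2 is a transcription factor that switches on detoxifying enzymes and enzymes that make glutathione and NADPH. Of 27 targets tested, 10 fell with AMP and none rose, beside 2% of all genes called lower, and the median was -0.23 on the log2 scale. The count was 6 without adenosine library 3 and 6 without AMP library 2. Nqo1, a quinone reductase that answers to both NRF2 and AhR, was at 287, 325 and 318 CPM with adenosine, 149.9, 148 and 156 CPM with AMP and 17.3, 23.1 and 17.4 CPM with DMSO. The 3 groups did not overlap, AMP lying between the others, and adenosine was 1.99-fold above AMP (log2 fold change -0.99 (SE 0.09), adjusted p = 1.89e-05). Srxn1, which repairs oxidised peroxiredoxins, went from 138 ± 24.3 CPM with adenosine to 81.4 ± 10.3 CPM with AMP (adjusted p = 0.00321). Gsta4, a glutathione transferase for products of lipid oxidation, was at 53.4 ± 3.96 and 33.2 ± 3.95 CPM (adjusted p = 0.00166). Pgd, of the pentose phosphate pathway, was 1.35-fold lower with AMP (adjusted p = 0.0036). Glutathione transferases have close relatives, and reads shared between them could have been split by the counting.

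**Figure D2:**
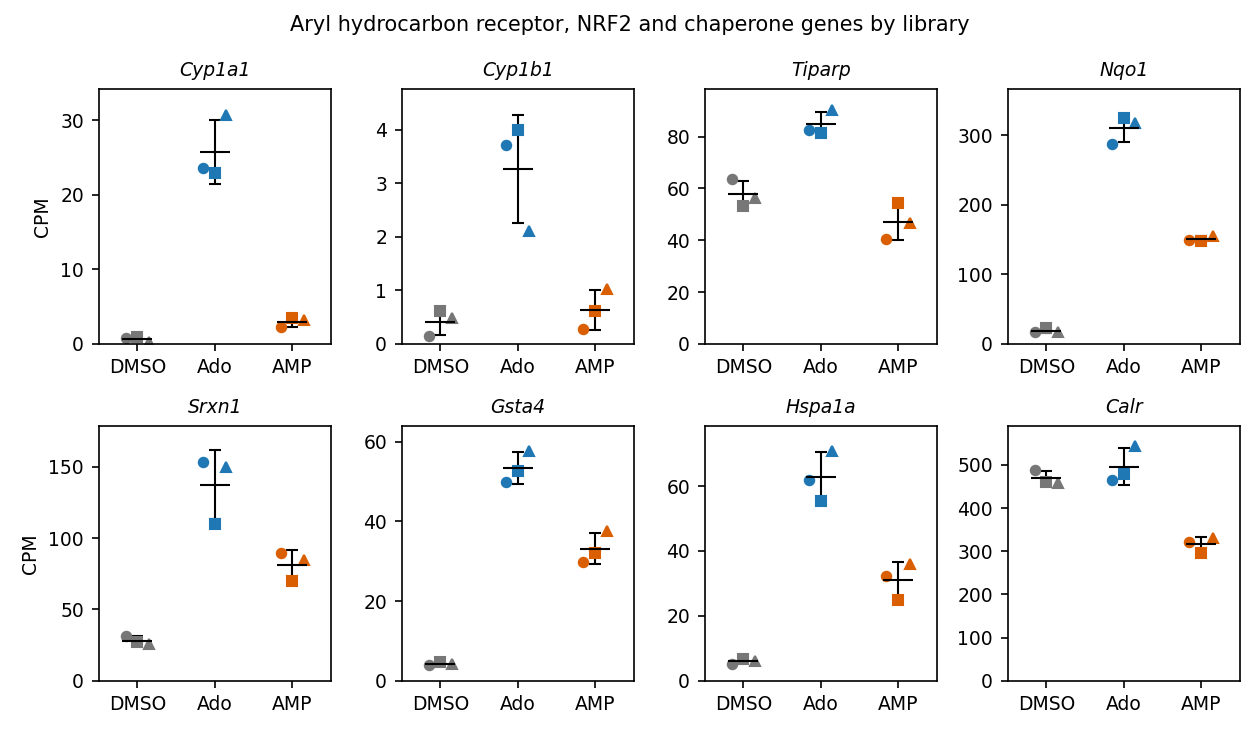
Level in CPM (vertical axis, from 0) of 8 genes by library for DMSO, adenosine (Ado) and AMP. Circles, squares and triangles are libraries 1, 2 and 3, and black lines give the mean and SD of 3 libraries. In every panel the 3 AMP libraries lie below the 3 adenosine libraries, while for Tiparp and Calr the DMSO libraries do not lie lowest.

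Chaperones of the endoplasmic reticulum, which fold secreted and membrane proteins, stood lower with AMP. Of 23 tested, 4 fell (Calr, Hspa5, Dnajb9 and Sel1l) and none rose, with a median of -0.19 on the log2 scale. Calr, the calcium-binding chaperone calreticulin, had 464, 478 and 545 CPM with adenosine and 322, 297 and 330.2 CPM with AMP. The purine groups were separate. DMSO was at 469 ± 15.9 CPM, and in the fit adenosine lay below it (log2 fold change -0.23, adjusted p = 0.0101). Calr was 1.52-fold lower with AMP (log2 fold change -0.61 (SE 0.07), adjusted p = 0.000144). Hspa5, also called BiP, the main lumenal HSP70, was at 918, 964 and 1104 CPM with adenosine, 667, 705 and 666 CPM with AMP and 1055, 1131 and 1068 CPM with DMSO. AMP again lay below both other groups (log2 fold change -0.51 against adenosine, adjusted p = 0.00112). Dnajb9, a co-chaperone of Hspa5, differed by -0.51 (adjusted p = 0.00345), but its DMSO level of 34.1 ± 2.67 CPM lay below both purine groups. Sel1l, part of the machinery that removes misfolded proteins, had a log2 fold change of -0.32 that lost its call without adenosine library 2 or without AMP library 1 (adjusted p 0.117 and 0.112). DESeq2 called 7 of the 23 lower.

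Among heat shock genes, those of mitochondrial chaperones included, 3 of 19 fell with AMP and none rose. The count of falls varied from 1 to 7 over the alternatives. It was 1 without adenosine library 1 or 3 or AMP library 1 or 2, and 7 without AMP library 3. Hspa1a, the heat-inducible HSP70, did not lose its call under any alternative run: 62, 55.3 and 70.9 CPM with adenosine against 32.4, 24.8 and 35.9 CPM with AMP (log2 fold change -0.98 (SE 0.14), adjusted p = 0.000497). The lowest adenosine library was above the highest AMP library, and DMSO was at 5.99 ± 0.672 CPM. The copy Hspa1b is nearly identical, so how reads were divided between the pair is uncertain. Hspa2, an HSP70 best known from spermatocytes, was among the 12 largest falls of genes at 10 CPM or more with adenosine, at 118, 115 and 149.5 CPM with adenosine, 64.6, 53.6 and 56.7 CPM with AMP and 3.57 ± 0.385 CPM with DMSO (adjusted p = 7.06e-05 between the purines).

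Of 21 genes of the hypoxia response outside glycolysis, 3 fell with AMP and none rose. P4ha1, a collagen prolyl hydroxylase, was at 201, 199.5 and 215 CPM with adenosine and 129, 126 and 133 CPM with AMP. The groups were far apart relative to their spread (log2 fold change -0.63 (SE 0.07), adjusted p = 9.47e-05). Ndrg1 and Ddit4, the latter an inhibitor of the growth kinase mTORC1 also called REDD1, had log2 fold changes of -0.52 and -0.46 (adjusted p = 0.00362 and 0.00448). Of 38 lysosome genes, 4 fell and none rose, or 2 without adenosine library 1 or 3. Ctsl, the protease cathepsin L, went from 292 ± 25.1 CPM with adenosine to 194 ± 9.84 CPM with AMP (adjusted p = 0.000265), and Atp6ap1, a subunit of the lysosomal proton pump, from 327 ± 5.07 to 239.8 ± 5.72 CPM (adjusted p = 0.00108). Gpnmb, a membrane glycoprotein of lysosomes, was at 206 ± 5.16 CPM with adenosine and 206 ± 24.5 CPM with AMP, against 3.58 ± 0.875 CPM with DMSO. Its difference between the purines had a 95% interval of -0.15 to 0.22 on the log2 scale. Txnip, an arrestin that curbs glucose uptake, was lower with AMP by 0.39 on the log2 scale (158, 148 and 169 against 116, 114 and 122 CPM, adjusted p = 0.00672).

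Genes of the contractile actin cytoskeleton were higher with AMP than with adenosine, and 4 of the 12 largest called rises (Acta2, Ablim1, Lpp and Tagln), taken among genes at 10 CPM or more with AMP and no overlap of libraries, coded for an actin or for proteins that bind actin or its adhesions. Of 24 tested genes of the TGF-beta, YAP and actin response, 10 rose with AMP and none fell, beside 4.52% of all genes called higher. Their median was 0.34 on the log2 scale, and without adenosine library 3 the count was 6. Acta2, smooth muscle actin (chromosome 19, 34241090 to 34255590), was at 21.6, 47.1 and 21.2 CPM in adenosine libraries 1 to 3 and 64.9, 173 and 74.1 CPM in AMP libraries 1 to 3. Library 2 was the highest of each group, with DMSO also highest in library 2 (233, 412 and 278 CPM), and no AMP library reached down to an adenosine library. The fitted difference was 3.59-fold (log2 fold change 1.84 (SE 0.35), adjusted p = 0.00442). Tagln, which codes for the actin-binding protein transgelin, showed the same order of libraries, with 11.6, 19.9 and 9.99 CPM with adenosine and 25.8, 62.3 and 26.9 CPM with AMP. Its log2 fold change was 1.52 (adjusted p = 0.00681), and without adenosine library 3 the call was lost (adjusted p = 0.0532). Cnn2, calponin 2, was less spread, at 42.9, 68.4 and 43.7 CPM with adenosine and 143, 144 and 114 CPM with AMP. DMSO, at 144 ± 1.75 CPM, overlapped the AMP libraries in CPM but was above them in the fit (log2 fold change of AMP over DMSO -0.37, adjusted p = 0.0295). The rise over adenosine was 2.68-fold (adjusted p = 6.48e-05).

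Lpp, a scaffold of focal adhesions, was 2.94-fold higher with AMP (19.8, 21.8 and 14.7 against 47.3, 66.2 and 47.4 CPM, adjusted p = 6.09e-05), and Ablim1, an actin-binding LIM protein, 3.31-fold higher (11.3, 15.8 and 10.3 against 32.1, 55.4 and 32.8 CPM, adjusted p = 0.00014). Cavin2, a coat protein of caveolae, was 2.97-fold higher (adjusted p = 0.000154), and Cav1, the caveolae's main membrane protein, went from 270.2 ± 44.8 to 389 ± 36.8 CPM (adjusted p = 0.00173). Srf, the transcription factor that drives many actin genes, was at 17.3, 18.1 and 19.3 CPM with adenosine and 30.5, 28.4 and 28.1 CPM with AMP. All AMP libraries exceeded all adenosine libraries, and the log2 fold change was 0.72 (adjusted p = 0.00179). DMSO was at 23.2 ± 1.54 CPM, from which AMP differed by 0.06 on the log2 scale (adjusted p = 0.681). Smooth muscle and pericyte markers include Acta2. Of 10, 5 were listed, summing to 451 to 701 CPM with AMP and 379 to 524 CPM with adenosine. Of these 5, 4 had a log2 fold change above 0 and 1 below, with a median of 0.40. Acta2 was called higher and Mcam lower (log2 fold change -1.92) by edgeR, while DESeq2 called 2 higher and 0 lower. Myh11, Rgs5 and Pdgfrb were not listed. Whether cells of those types had a part in the Acta2 difference was not tested.

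**Figure D3:**
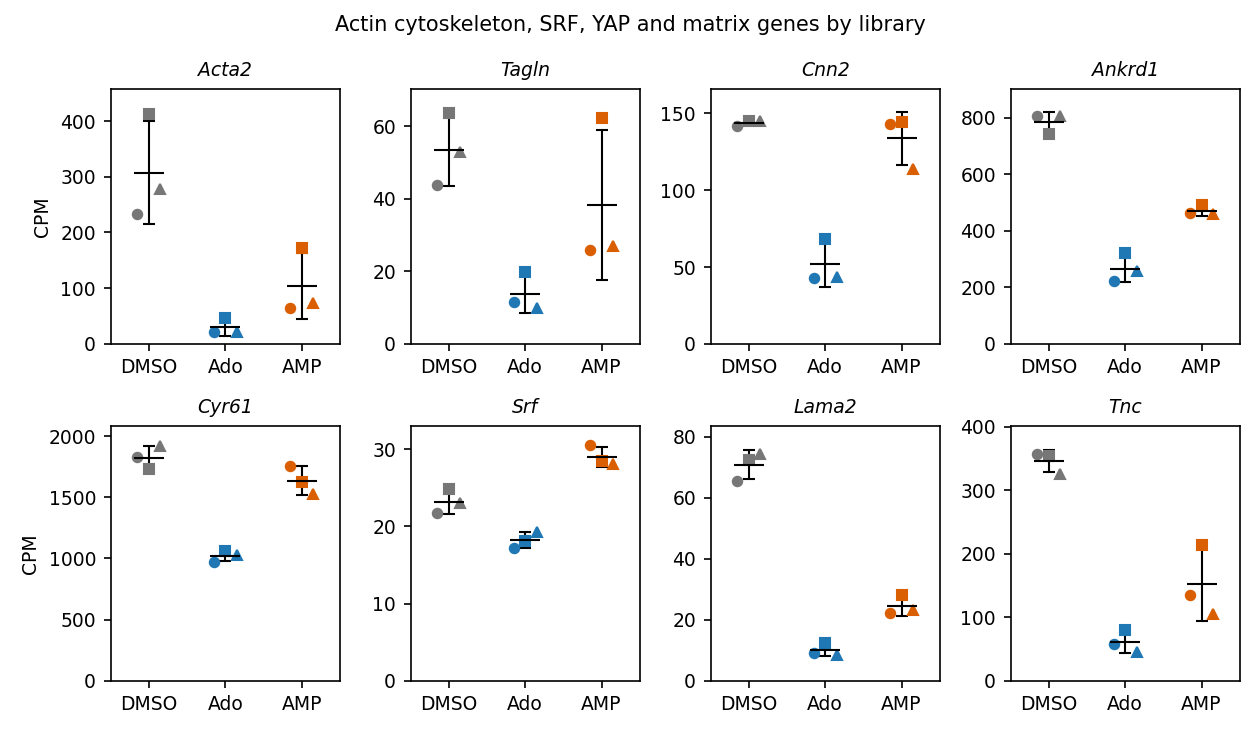
Level in CPM (vertical axis, from 0) of 8 genes of the actin cytoskeleton, YAP targets and matrix, by library for DMSO, adenosine (Ado) and AMP. Circles, squares and triangles are libraries 1, 2 and 3, and black lines give the mean and SD of 3 libraries. In all 8 panels the AMP libraries lie above the adenosine libraries, and library 2 is the highest AMP library for Acta2, Tagln and Tnc.

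The same list holds known targets of YAP and TAZ, coactivators that respond to cell spreading and tension. Among these, Cyr61, a secreted matricellular protein, was at 973, 1062 and 1025 CPM with adenosine, 1758, 1627 and 1524 CPM with AMP and 1827, 1727 and 1917 CPM with DMSO. AMP lay above adenosine by 0.73 on the log2 scale (SE 0.08, adjusted p = 0.000115), and in the fit below DMSO (-0.42, adjusted p = 0.000417). Ankrd1, a nuclear and sarcomeric ankyrin repeat protein, went from 267 ± 49.3 to 469.7 ± 17.3 CPM (adjusted p = 9.47e-05), with DMSO at 784 ± 36.5 CPM. The ligand gene Tgfb2 was 1.99-fold higher with AMP (12.7, 18.9 and 15.2 against 29.8, 29.2 and 31.3 CPM, adjusted p = 0.000463).

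Among 36 extracellular matrix genes, 9 rose with AMP and none fell, with a median log2 fold change of 0.33. The count of rises varied from 6 to 14 over the alternatives, and was 14 without AMP library 3. Lama2, the laminin chain of the muscle basement membrane, was at 9.17, 12.2 and 8.55 CPM with adenosine and 22.2, 28 and 23.1 CPM with AMP. The groups were well apart, and DMSO was higher still at 70.8 ± 4.75 CPM. The rise over adenosine was 2.52-fold (log2 fold change 1.33 (SE 0.14), adjusted p = 9.47e-05). Tnc, the wound-associated matrix protein tenascin C, was at 57.9, 80.4 and 45.7 and 136, 215 and 104 CPM. Again library 2 was highest in both groups (adjusted p = 0.00142). Col8a1, a short-chain collagen, had 74 ± 8.45 CPM with adenosine and 123 ± 16.8 CPM with AMP, and DMSO had 57.6 ± 4.89 CPM, so that AMP lay above both others. Col4a2, of basement membrane collagen, was 1.66-fold higher with AMP (adjusted p = 0.00259). Bmper, a secreted regulator of BMP signalling, was among the largest rises, at 6.44, 9.78 and 3.9 CPM with adenosine and 19.8, 29.5 and 14.8 CPM with AMP (adjusted p = 0.00155), and Bmp4 rose by 0.49 on the log2 scale (adjusted p = 0.0032).

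Secreted signals for leukocytes were higher with AMP. Of 21 chemokine and cytokine genes tested, 10 rose and none fell, with a median log2 fold change of 0.37. The count fell to 4 without AMP library 1, to 5 without AMP library 2 and to 5 without adenosine library 3. Cxcl12, the chemokine that calls cells bearing Cxcr4, was at 98.7, 140.0 and 119.8 CPM with adenosine and 254, 282 and 237 CPM with AMP. No libraries overlapped, and DMSO (222 ± 10.9 CPM) was near the AMP level. Its rise of 2.23-fold had an adjusted p of 1.89e-05. Csf1, a growth factor for macrophages, had 714, 806 and 753 CPM with adenosine and 993, 983 and 1023 CPM with AMP, above the 566 ± 78.8 CPM of DMSO (adjusted p = 0.00354 between the purines). Ccl2, which attracts monocytes, was 2.04-fold higher with AMP (adjusted p = 0.00524). AMP library 3 was its lowest, at 20.8 CPM against 38 and 36.4 CPM. Il34, another ligand of the macrophage receptor, lost its call without AMP library 2, without adenosine library 1 or without adenosine library 3 (log2 fold change 0.95, adjusted p = 0.0171 with all libraries and 0.0926, 0.0513 and 0.106 without them).

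Of 8 genes for EGF receptors, their ligands and an inhibitor, 2 rose with AMP and 1 fell. Egfr was at 87, 75.3 and 72.7 CPM with adenosine and 144, 159 and 123 CPM with AMP, a rise of 1.87-fold (adjusted p = 0.000297). The lowest AMP library exceeded the highest adenosine library. DMSO was at 172 ± 19.1 CPM, and in the fit AMP lay below it (log2 fold change -0.53, adjusted p = 0.000808). Errfi1, which blocks the active receptor, rose by 0.45 on the log2 scale (adjusted p = 0.00114), and the ligand Hbegf was lower with AMP, at 120.4, 102 and 135 CPM against 174, 167 and 189 CPM (adjusted p = 0.00225). Hbegf was at 14.5 ± 1.53 CPM with DMSO, below both purines. Of 18 ERK feedback and target genes, 2 rose with AMP and none fell. Ccnd1, the G1 cyclin D1, was at 176, 267 and 212 CPM with adenosine, 387, 466 and 392 CPM with AMP and 258, 231 and 235 CPM with DMSO. AMP lay above both other groups, by 1.97-fold over adenosine (log2 fold change 0.98 (SE 0.11), adjusted p = 0.000112). Spry4, an inhibitor of receptor tyrosine kinase signalling, rose from 30.9 ± 2.08 to 43.5 ± 3.07 CPM (adjusted p = 0.00728).

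Of 24 immediate early genes, 4 rose with AMP and 1 fell, and without adenosine library 1 or AMP library 1 only 2 rose. Egr1 was at 219.7, 246 and 244 CPM with adenosine and 297, 322 and 295 CPM with AMP (adjusted p = 0.00305). Fos, a subunit of AP-1, was at 40.8, 44.2 and 51.2 and 29.9, 31.9 and 30.6 CPM (log2 fold change -0.52, adjusted p = 0.0115), a call lost without adenosine library 3 (adjusted p = 0.0826). Nr4a1, an orphan nuclear receptor that answers to cAMP, was at 26.9, 27.3 and 23.3 CPM with adenosine and 14.9, 12.3 and 17.2 CPM with AMP (adjusted p = 0.00506). Of 23 cAMP and CREB response genes, 1 rose and 2 fell, or 1 without DMSO library 3, adenosine library 1 or 3, or AMP library 1 or 2. The median of that list was -0.03 and changed sign between alternatives.

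Among regulators of muscle stem cell identity, 3 of 18 rose with AMP and none fell, and of 26 satellite cell surface and quiescence genes 5 rose and none fell, with medians of 0.21 and 0.22 on the log2 scale. Myf5, the myogenic factor of committed satellite cells, was at 94.6, 114 and 110.3 CPM with adenosine, 156, 178 and 176 CPM with AMP and 177, 139 and 164 CPM with DMSO. The AMP and adenosine libraries were apart and AMP overlapped DMSO. The difference between the purines was 1.65-fold (log2 fold change 0.72 (SE 0.09), adjusted p = 0.000144). Pitx3, a homeobox factor of myoblasts, was 2.8-fold higher with AMP (3.22, 6.33 and 5.08 against 12.2, 17.2 and 10.4 CPM, adjusted p = 0.0032). Pax7, the factor that marks satellite cells, was at 61.8, 66.9 and 69.1 CPM with adenosine and 68.2, 83.4 and 79.9 CPM with AMP, and the groups overlapped (95% interval 0.08 to 0.46, adjusted p = 0.0959). Myod1, the factor of activated myoblasts, was at 651, 759.9 and 747 and 928, 936 and 782 CPM. Its groups did not overlap, and the adjusted p was 0.0687, or 0.0331 in DESeq2, 0.00673 without AMP library 3, 0.0461 without DMSO library 1 and 0.0411 with the replicate number as a block. Myog, the factor of differentiating cells, ranged from 2.34 to 13.6 CPM with AMP and from 1.32 to 13.1 CPM with adenosine (95% interval -1.08 to 1.80).

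On the cell surface, the adhesion molecule Vcam1 was at 132, 156 and 129 CPM with adenosine and 204, 280.4 and 196 CPM with AMP, 1.68-fold higher (adjusted p = 0.00134). Ncam1, another adhesion molecule of myoblasts, was at 102, 120.5 and 83.9 and 170.0, 228 and 154 CPM, 1.86-fold higher (adjusted p = 0.00134). For both, library 2 was highest in either purine group, and DMSO was higher than all. Cd34, a sialomucin of quiescent satellite cells, was at 228, 223 and 234 CPM with adenosine and 368, 341 and 326 CPM with AMP (adjusted p = 0.00083). Rbpj, the DNA-binding partner of Notch, rose by 0.52 on the log2 scale (adjusted p = 0.000543), the 1 call among 13 Notch genes. Of 28 differentiation and sarcomere genes, 2 rose and none fell. The count was 1 without any 1 of the DMSO libraries, adenosine library 1 or 3, or AMP library 1 or 2, and 4 without adenosine library 2, and the median changed sign between alternatives.

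**Figure D4:**
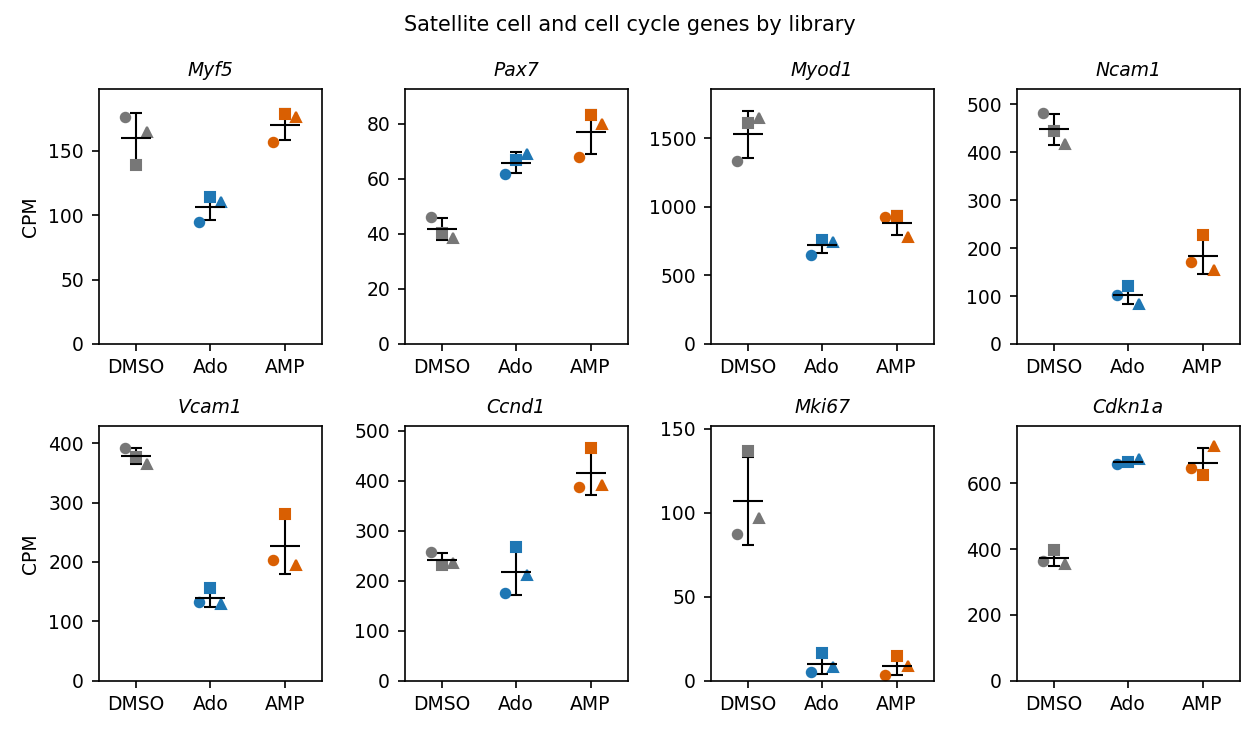
Level in CPM (vertical axis, from 0) of 8 satellite cell and cell cycle genes by library for DMSO, adenosine (Ado) and AMP. Circles, squares and triangles are libraries 1, 2 and 3, and black lines give the mean and SD of 3 libraries. AMP and adenosine are apart for Myf5, Myod1, Ncam1, Vcam1 and Ccnd1 and overlap for Pax7, Mki67 and Cdkn1a.

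Few cell cycle genes other than Ccnd1 were called, and several varied widely between libraries of a group. Mki67, found in cycling cells, was at 5.29, 16.7 and 8.22 CPM with adenosine, 3.24, 14.5 and 8.62 CPM with AMP and 87, 136 and 97 CPM with DMSO. Library 2 was highest in all 3 groups, and the 95% interval of the log2 fold change between the purines ran from -1.02 to 0.70. Of 48 mitosis genes, none rose and 1 fell, and the list's median of -0.19 ranged from -0.64 to 0.34 over the alternatives. Of 50 replication genes, 1 rose and 2 fell, or 4 without AMP library 2. Pcna, the sliding clamp of DNA polymerase, was lower with AMP, at 428, 490.3 and 401 CPM against 582, 605 and 626 CPM (adjusted p = 0.00705), and so was Slbp, which binds the stem-loop of histone mRNAs (adjusted p = 0.0033). Cdkn1a, the cell cycle inhibitor p21, was at 667 ± 8.41 CPM with adenosine and 662 ± 46.1 CPM with AMP (95% interval -0.12 to 0.18), against 372 ± 22 CPM with DMSO. No cyclin-dependent kinase inhibitor of the 7 tested was called by edgeR or DESeq2, and 1 had an unadjusted p under 0.05. Among 30 p53 targets 2 rose and 3 fell. Plk2 (log2 fold change 0.39) and Zmat3 (0.55) rose, and Pmaip1, the death gene NOXA, fell (-0.72, adjusted p = 0.00579). The fallen count was 1 without AMP library 1 or 2 or adenosine library 1 or 3.

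Genes for making ribosomes leaned higher with AMP. Of 43 ribosome biogenesis genes, 11 rose and none fell, with a median of 0.21, and 41 of 43 had a log2 fold change above 0. The number of calls was 3 without adenosine library 3, 4 without adenosine library 2 or AMP library 1, 6 without DMSO library 3, and 7 without DMSO library 2 or adenosine library 1. With library totals as the scaling it was 3. Gar1, a protein of the particles that modify ribosomal RNA, was at 56.6, 54 and 64.5 CPM with adenosine and 85, 72.9 and 81.3 CPM with AMP (adjusted p = 0.00425), and Wdr43, of the small subunit processome, at 203, 209 and 211 and 239.8, 245 and 262 CPM (adjusted p = 0.00687). Both calls held under all alternatives run. Of 80 cytosolic ribosomal protein genes 3 rose and none fell, with a median of 0.10, but the count was 24 without AMP library 3 and 0 without AMP library 1. These genes have many processed copies in the genome, so their reads may have been divided.

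Enzymes of serine and folate metabolism and other targets of the transcription factor Atf4 were among the genes higher with AMP. Of 44 genes of the integrated stress response, 10 rose and 1 fell, with a median of 0.13. The fall was that of Ddit4, described above with the hypoxia response. DESeq2 called 11 higher and 2 lower, and at an unadjusted p under 0.05 in edgeR 16 were higher and 6 lower. Mthfd2, a mitochondrial folate enzyme, was at 49.6, 61.5 and 56.8 CPM with adenosine, 84.6, 85.1 and 73.6 CPM with AMP and 204, 209.9 and 212 CPM with DMSO. Purine groups were apart and both under DMSO (log2 fold change 0.58 between them, adjusted p = 0.00134). Phgdh, the first enzyme of serine synthesis, rose from 101 ± 11.8 to 145 ± 17.9 CPM, Asns, asparagine synthetase, from 65.2 ± 1.95 to 86 ± 4.19 CPM, and Pck2, a mitochondrial carboxykinase, from 11.1 ± 0.658 to 18.7 ± 2.52 CPM (adjusted p = 0.0032, 0.00305 and 0.0029). Ass1, the arginine-making enzyme argininosuccinate synthase, was 2.04-fold higher with AMP (28.2, 41 and 31.2 against 59, 80.5 and 59.1 CPM, adjusted p = 0.000239). Arg2, the mitochondrial arginase, was at 52.7, 37.9 and 57.4 CPM with adenosine and 27.6, 21.3 and 40 CPM with AMP, with the lowest adenosine library under the highest AMP library (DMSO 0.308 ± 0.1 CPM). Its call (adjusted p = 0.0322) was lost without AMP library 1 or 2 or adenosine library 1 or 3 (adjusted p 0.0963 to 0.165). Oat, which makes glutamate semialdehyde from ornithine, and Slc38a2, a transporter of neutral amino acids, were lower with AMP (log2 fold changes -0.39 and -0.42, adjusted p = 0.00689 and 0.0029).

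Few of the genes that sense, cut, carry and convert purines were called. Of 7 purine receptors listed, 1 rose. P2ry2, a receptor for extracellular ATP and UTP, was at 3.88, 4.61 and 5.08 CPM with adenosine, 13.7, 13.5 and 8.45 CPM with AMP and 14.5, 14.9 and 17.7 CPM with DMSO. All adenosine libraries lay below all others, by 2.71-fold under AMP (log2 fold change 1.44 (SE 0.22), adjusted p = 0.00103). Adora2b, the low-affinity adenosine receptor, was at 0.908, 1.96 and 0.508 CPM with adenosine and 2.25, 4.4 and 1.11 CPM with AMP (95% interval 0.17 to 2.28). The groups overlapped, and the adjusted p of 0.169 became 0.0403 without AMP library 3. Adora1, Adora2a and Nt5e, the ecto-5'-nucleotidase that cuts AMP, were not among the listed genes. Of 13 ectonucleotidases and nucleotidases, none rose and Enpp1, which cuts ATP to AMP and pyrophosphate, fell (17.9, 17.1 and 19.1 against 10.5, 11.3 and 10.9 CPM, adjusted p = 0.0253). Leaving out any 1 AMP library, or adenosine library 1 or 3, ended that call (adjusted p 0.0563 to 0.111).

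Of 17 genes of nucleoside transport and purine turnover, 3 rose and none fell, but only 1 rose without AMP library 1, AMP library 2 or adenosine library 3. Mtap, which salvages methylthioadenosine, held its call under all alternatives, at 150.4, 189.6 and 174 CPM with adenosine and 201, 224 and 216 CPM with AMP (adjusted p = 0.00805). The transporter Slc29a2 was at 7.85, 8.21 and 8.47 and 14.4, 14.6 and 10.6 CPM (log2 fold change 0.74, adjusted p = 0.0133, and 0.0514 to 0.0634 without those 3 libraries in turn). The call of Ahcy, the third of the 3, was lost without DMSO library 3, adenosine library 1 or 3, or AMP library 1 or 2 (log2 fold change 0.42, adjusted p = 0.032, and 0.0543 to 0.164 without them). Slc29a1, the main carrier, was at 57.5, 60.4 and 69.2 and 73.5, 80.6 and 68.5 CPM, with overlap (95% interval 0.09 to 0.50, adjusted p = 0.0835, or 0.0199 without AMP library 3). Adk was at 35.4 ± 5.79 CPM with adenosine and 35.7 ± 2.27 CPM with AMP (95% interval -0.16 to 0.28), against 112 ± 5.62 CPM with DMSO. Impdh2, which commits purines to GMP, was lower with AMP, at 480.1, 439.7 and 489 against 575, 612 and 676 CPM (adjusted p = 0.00541), the 1 call among 12 genes of purine synthesis.

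Imprinted genes, expressed from 1 parental copy, gave 5 falls and 1 rise among 20 with AMP, but 3 falls without adenosine library 1 and 2 without adenosine library 3, AMP library 1 or AMP library 2. Peg3, a zinc finger gene expressed from the paternal copy, was at 489, 585 and 486 CPM with adenosine and 294, 344 and 351 CPM with AMP (log2 fold change -0.62 (SE 0.08), adjusted p = 0.000234). Mest, also paternal, fell by 0.55 on the log2 scale (adjusted p = 0.00779). Both calls held under all alternatives, and both genes were lower with DMSO than with adenosine (244 ± 8.08 and 20.1 ± 2.96 CPM). Those of the maternal non-coding RNAs Rian and Meg3 (log2 fold changes -0.86 and -0.61, adjusted p = 0.0156 and 0.0486) were lost without adenosine library 3 (0.0716 and 0.159), AMP library 1 (0.0723 and 0.0758) or AMP library 2 (0.0678 and 0.143). Meg3 also lost it without any other 1 of the adenosine and DMSO libraries. The protocol keeps no strand, so reads of overlapping antisense RNAs cannot be told apart from theirs. H19 was at 0.33, 1.56 and 1.35 CPM with adenosine and 1.35, 2.73 and 3.67 CPM with AMP, against 57.5 ± 13.2 CPM with DMSO. The purine groups overlapped (adjusted p = 0.0953), and with the replicate number as a block the adjusted p was 0.0105.

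Ngfr, the low-affinity neurotrophin receptor, was at 12.1, 11.3 and 9.15 CPM with adenosine, 3.15, 2.64 and 2.99 CPM with AMP and 0.211 ± 0.051 CPM with DMSO (log2 fold change -1.85 (SE 0.23), adjusted p = 0.000223 between the purines). Of the 8 Schwann cell markers, which include Ngfr and Ncam1, 5 were listed, 1 lower and 1 higher with AMP, and Sox10 was not listed. Ripk3, a kinase of necroptosis, was at 9, 11.8 and 13.4 CPM with adenosine and 5.4, 5.11 and 4.44 CPM with AMP, where AMP overlapped DMSO (3.66, 4.36 and 4.7 CPM) and adenosine stood above (adjusted p = 0.0032). Marcksl1, an actin-binding substrate of protein kinase C, showed a like order, at 78.8 ± 15.3 CPM with adenosine, 39.2 ± 10.3 CPM with AMP and 38 ± 4.29 CPM with DMSO. Its fitted log2 fold change of AMP over DMSO was -0.23 (adjusted p = 0.215). Kctd12, a subunit of GABA-B receptors, Tent5c, a poly(A) polymerase, and Rgcc, a regulator of the cell cycle, were 2.32-fold, 2.28-fold and 2.22-fold lower with AMP (adjusted p = 0.000919, 0.00134 and 0.00755). Ccno and Tex14, also among the largest falls, were 2.02-fold and 1.94-fold lower with AMP (adjusted p = 0.00187 and 0.00211). Of the interferon and antigen presentation genes, 1 of 31 rose and 2 fell. H2-K1, a class I MHC chain, was at 859, 850.1 and 955 CPM with adenosine and 587, 568 and 587 CPM with AMP (adjusted p = 0.000223), and its partner B2m fell by 0.36 on the log2 scale (adjusted p = 0.00641). MHC chains resemble each other, so the split of reads among them is uncertain.

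Other large rises were those of Gfra1, a coreceptor for GDNF (3.55, 5.4 and 3.64 against 13.6, 13.3 and 7.94 CPM, adjusted p = 0.00174), and Gnao1, a G protein subunit (7.43, 7.9 and 4.74 against 18.6, 21.4 and 15.2 CPM, adjusted p = 0.000234). In both, no libraries overlapped. Dapk2, a calmodulin-regulated kinase, was 2.68-fold higher (adjusted p = 6.44e-05) and Pknox2, a homeobox gene, 2.71-fold (adjusted p = 0.00321), while both stayed below DMSO, at 148 ± 0.62 and 112 ± 6.77 CPM. Hk2, the hexokinase that starts glycolysis, was the 1 call among 28 glycolysis genes (log2 fold change 0.71), and lost it without AMP library 1, AMP library 2 or adenosine library 3 (adjusted p 0.0586 to 0.0809). DESeq2 also called 2 of the 28 lower.

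Several large groups of genes held few calls or none. None of the 32 proteasome genes was called by edgeR, with log2 fold changes between -0.26 and 0.09. DESeq2 called 1 of them lower, and 3 had an unadjusted p under 0.05. Psma3, a core particle subunit, had a 95% interval of -0.15 to 0.17. Of 76 nuclear genes for oxidative phosphorylation 1 rose, Ndufs4, a call lost without AMP library 1 or 2 or adenosine library 3 (adjusted p 0.0533 to 0.0707). A further 17 of the 76 were lower with AMP at an unadjusted p under 0.05, and DESeq2 called 1 of these. Of 27 genes of cholesterol synthesis 1 rose and 1 fell, of 27 autophagy genes 1 rose and 1 fell, and none of the 19 histone genes was called by edgeR, against 2 by DESeq2 and 5 at an unadjusted p under 0.05. Medians of these lists lay between -0.14 and -0.04.

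**Figure D5:**
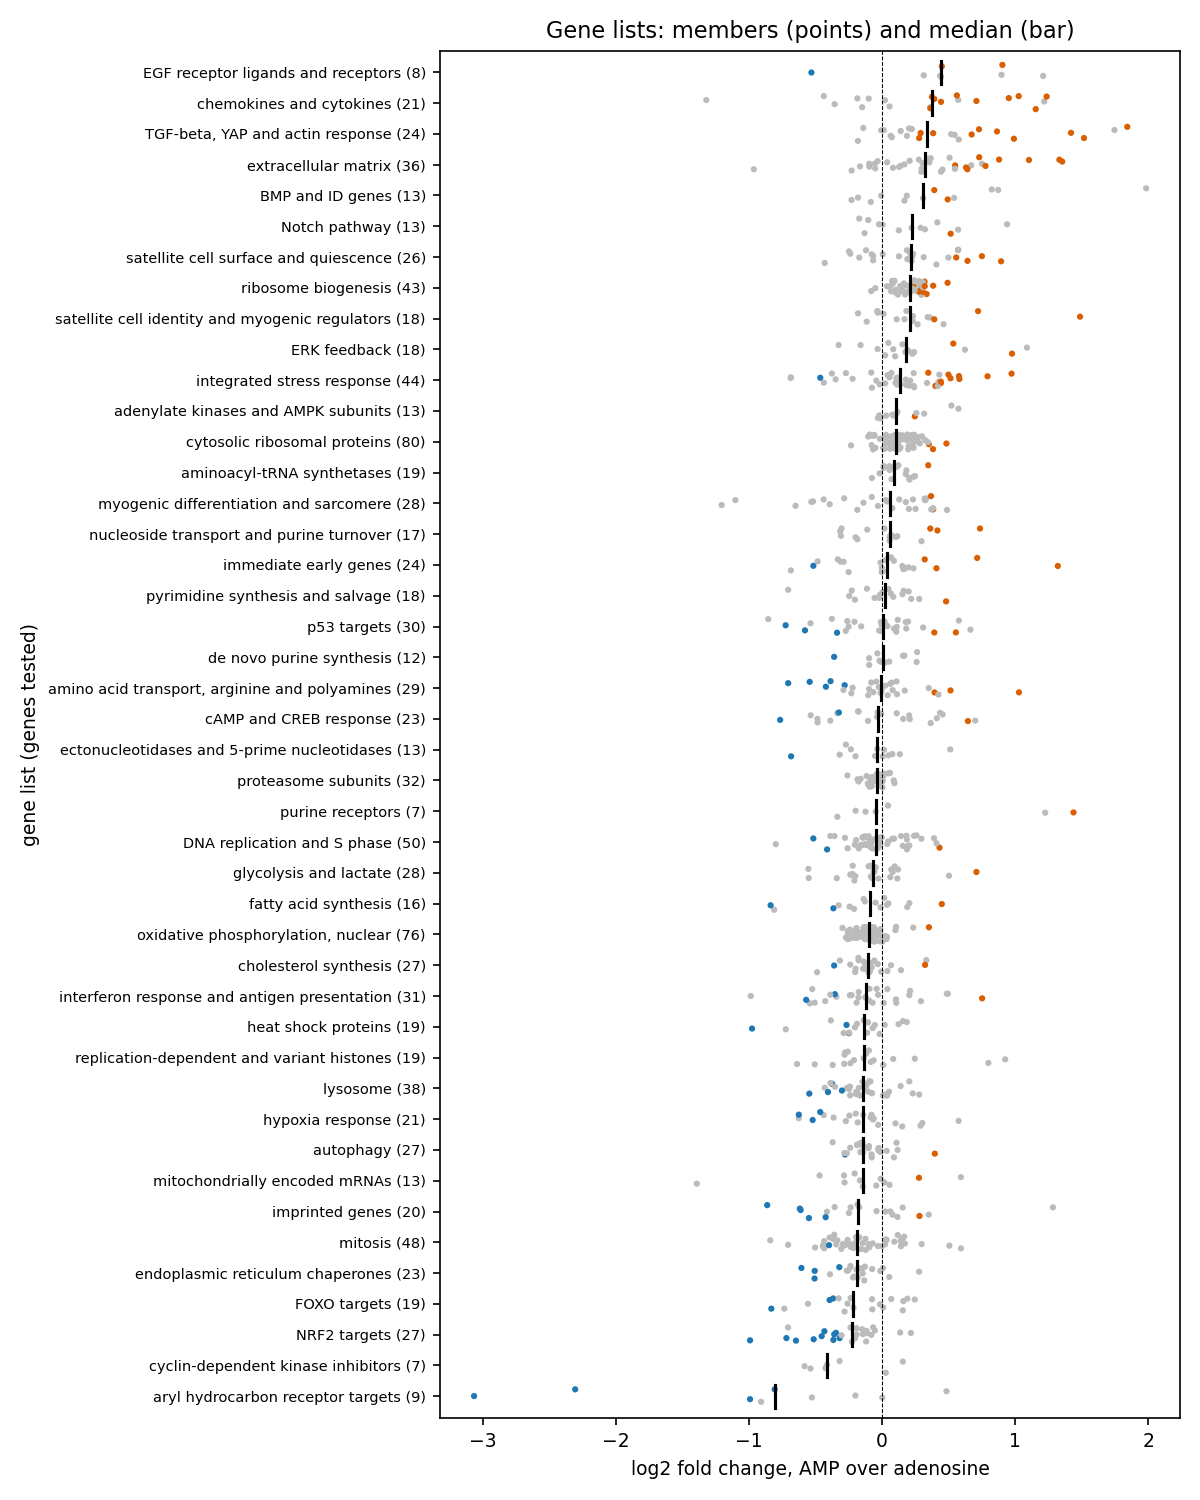
Log2 fold change of AMP over adenosine (horizontal axis) for the tested members of each of 44 gene lists (vertical axis, with the number tested), ordered by median. Orange and blue points are members called higher and lower, grey points those not called, and black bars the medians, from -0.81 for the AhR targets to 0.45 for the EGF receptor list.

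The levels with DMSO place these differences. Both changes from DMSO below use the same 3 DMSO libraries, so they are set side by side and not tested against each other. For Cyp1a1 the log2 fold changes over DMSO were 4.97 for adenosine and 1.91 for AMP. They were 3.70 for adenosine and 2.71 for AMP for Nqo1, -3.13 for adenosine and -1.80 for AMP for Lama2 and -2.80 for adenosine and -1.45 for AMP for Tnc. Others nearer DMSO with AMP than with adenosine were Cnn2, with -1.79 for adenosine and -0.37 for AMP, Cxcl12, with -1.21 for adenosine and -0.05 for AMP, Tgfb2, with -1.08 for adenosine and -0.08 for AMP, Myf5, with -0.90 for adenosine and -0.18 for AMP, and Ripk3, with 1.12 for adenosine and -0.03 for AMP. Lpp, with -2.54 for adenosine and -0.99 for AMP, and Cavin2, with -2.365 for adenosine and -0.79 for AMP, lay below DMSO with both purines. So did Pitx3, with -3.21 for adenosine and -1.725 for AMP, and Slc29a2, with -2.30 for adenosine and -1.57 for AMP. The values had opposite signs for Ccnd1, -0.46 for adenosine and 0.52 for AMP, and for Tiparp, 0.25 for adenosine and -0.56 for AMP. Calr and Hspa5 stood further from DMSO with AMP than with adenosine, at -0.23 for adenosine and -0.83 for AMP and at -0.43 for adenosine and -0.94 for AMP.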

How the data were processed

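RNA of 9 libraries of batch 2 was used: 3 with DMSO, 3 with 0.1 mM adenosine and 3 with 0.25 mM AMP, grouped by their labels. Per the labels' protocols, total RNA was made into full-length cDNA by Smart-seq2, which keeps no strand, and cut with Tn5. The authors deposited raw counts per gene symbol and FPKM values, and per the submitters' processing notes they used Trim Galore, STAR, featureCounts of Subread, DESeq2 and the mm10 build. The sources used here do not give versions, the counter's settings or the gene lengths behind the FPKM. The deposited counts had been filtered, since the smallest total of a gene over the 9 libraries was 101. Of 13106 lines, 43 named no gene (0.0589% of counts) and were left out. Symbols altered by R were restored for 551 genes, and 13034 of 13063 were found in reference name tables.

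Counts were fitted with edgeR 4.0.16 in R 4.3.3 on all 9 libraries, whose 3 groups thus share 1 estimate of spread, with TMM factors, filterByExpr (all 13063 genes passed) and the two-sided quasi-likelihood F test of AMP against adenosine. P-values were adjusted by Benjamini-Hochberg over all 13063 genes. The fit was tested on simulated data. Levels are CPM of the library total, as mean ± SD over 3 libraries, and fold changes and 95% intervals come from the fit. Replicates differed by more than counting noise (chi-square per degree of freedom 3.54 to 19.9), and none was a copy of another within that noise. CPM are not divided by gene length, so levels are not compared between genes. Library totals of 11107450 to 14201933 limit precision for genes at a few CPM.

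Deviations from the group means of AMP and adenosine libraries of the same number correlated by -0.03, 0.22 and 0.47. Those of different numbers correlated by -0.41 to 0.21, with a median of -0.14. The labels do not say that the numbers pair libraries, and not all same-number values exceeded 0.1, so the libraries were treated as unpaired. Alternatives were library totals, DESeq2 1.42.0, no filter, a mean of at least 10 CPM, the 6 libraries alone, a replicate block, limma 3.58.1 on log2(FPKM + 1), each library left out and, added after seeing the data, removal of genes like ribosomal RNA. Genes were named by a rule: the 12 largest called changes in each direction with a mean of at least 10 CPM in the higher group and no overlap of libraries, without predicted models and pseudogenes, up to 4 called members of each list with the smallest adjusted p (2 of the highest level where none was called), and a set of myogenic, cell cycle and purine genes. Not every list member picked by the rule is described above. Ahr, Ahrr and Mcam were named after their values were seen, as were the genes under other observations. Members, lists and rule were chosen with earlier results of these data known. Motifs were searched on both strands of 300 bases of RefSeq promoters of 9399 genes. Batch 1 was not used here.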

Additional observations from a re-analysis of the deposited data

How the results depend on the processing

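No alternative run turned the direction of a called gene among those named by the rule. Leaving out each library in turn gave 408 to 991 called genes (851 with all), 304 to 710 higher and 104 to 281 lower with AMP, and 56 to 147 and 13 to 27 more than 2-fold higher and lower. The low ends, 408, 304, 104 and 13, came without adenosine library 3 (58 more than 2-fold higher), and the 56 without AMP library 2. With genes of a mean of at least 10 CPM, which leaves 8581 genes, 47 and 4 were more than 2-fold higher and lower. The test on log2(FPKM + 1) called 376 genes higher, 19 and 5 of the called genes beyond 2-fold up and down. A pseudocount of 1 shrinks the fold of low genes by construction. DESeq2 called 1058 genes, of which 839 were among the 851, and removal of genes like ribosomal RNA 842. With the replicate number as a block, 1159 genes were called, 779 higher and 380 lower, and 850 of the 851 were among them. That pairing is a shared number only, although 7 of 9 libraries correlated best with another of their own number. Among the genes named by the rule, the block made 3 pass that had not (Myod1, H19 and H2afz) and ended no call. The cause of these shifts was not tested. Doses differ between the compounds, 3 libraries a group limit what small differences can be called, and genes at a few CPM have wide intervals.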

Other observations

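The following groups were put together after their values had been seen, so their counts are a description and carry no test of the group. Of 43 genes for actin binding and focal adhesion, Lpp and Ablim1 among them, 24 were called higher with AMP and none lower by edgeR's quasi-likelihood test, with a median log2 fold change of 0.50. Marcksl1, named above as actin-binding, was left out of this group and was called lower (log2 fold change -0.97, adjusted p = 0.00134). Tns3, a tensin of adhesions, was at 193, 202 and 156 CPM with adenosine and 329.5, 351 and 317 CPM with AMP (adjusted p = 0.000112), and Myh9, the heavy chain of non-muscle myosin, at 248, 289 and 267 and 399, 418 and 381 CPM (adjusted p = 0.00034). For both, no AMP library reached down to an adenosine library. Of 15 genes for SRF, its cofactors, TEAD factors and theirs, 6 were higher, among them Srf, Tead1 (70.3, 51.3 and 43.5 against 75.3, 112 and 111 CPM, adjusted p = 0.00564) and Vgll2 (log2 fold change 0.90, adjusted p = 9.47e-05). Yap1 had a log2 fold change of 0.01 (95% interval -0.24 to 0.26). The CArG box, the site named for SRF, was in 3.18% of the promoters of genes called higher, 3.41% of those called lower and 1.64% of all.

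Of 22 genes of the NF-kappaB pathway, 8 were higher with AMP and none lower, with a median of 0.33. Tnfaip3, which ends NF-kappaB signalling, was at 18.2, 21 and 18 CPM with adenosine, 33.8, 38.8 and 28.9 CPM with AMP and 17.4 ± 3.01 CPM with DMSO (adjusted p = 0.00252 between the purines). Its fitted log2 fold change of adenosine over DMSO was -0.18 (adjusted p = 0.318). Traf1 and Bcl3, both targets of the pathway, had log2 fold changes of 1.02 and 1.02 (adjusted p = 0.00316 and 0.00321), while the subunit Rela had -0.01 (95% interval -0.19 to 0.18). Unlike Tnfaip3, neither Traf1 nor Bcl3 stood above DMSO with AMP in the fit. Over DMSO, Traf1 had log2 fold changes of -1.97 for adenosine and -0.95 for AMP, and Bcl3 -1.22 for adenosine and -0.20 for AMP. Of 11 host genes of small nucleolar RNAs, 6 were higher and none lower, with a median of 0.53. Zfas1 was at 19.9, 27.9 and 18.9 CPM with adenosine and 48.2, 63.6 and 51 CPM with AMP, and Gas5 at 105, 118 and 122 and 153, 158 and 174 CPM (adjusted p = 6.44e-05 and 0.000517). Of 13 genes, made up of receptor tyrosine kinases and the receptor Igf2r, which is not a kinase, 4 were higher and 1 lower. Those higher included Egfr, Axl and Igf1r (log2 fold change 0.88, adjusted p = 0.00314), and the lower was Ret (-0.81, adjusted p = 0.0496).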
